A study of Mus musculus with 22 samples.

Results

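Macrophages made from mouse spleen monocytes were compared after a day with oxidised low-density lipoprotein (ox-LDL) and after a day without it. The comparison takes the 11 macrophage libraries of the 22 in the series, by their titles: A to E as the 5 vehicle libraries, G to L as the 6 that had ox-LDL. All 11 came from male wild-type C57BL/6 mice. Splenic monocytes in serum-containing RPMI medium had first spent 5 days with phorbol myristate acetate (PMA) at 200 ng/mL, so vehicle and ox-LDL macrophages alike carry that exposure. Vehicle or ox-LDL at 50 µg/mL was then present for 24 hours. Polyadenylated RNA then went into libraries by an ultra-low-input SMARTer method. The other 11 libraries are monocytes without PMA, 6 with vehicle and 5 with ox-LDL. Nothing in the labels tells if the replicates of a group are different mice or cultures. Each p-value sets the difference between groups against the spread among these libraries, and that spread may be technical.

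Macrophages take up modified lipoproteins through scavenger receptors and break them down in lysosomes, which releases cholesterol. When membrane cholesterol is high, INSIG proteins hold SCAP and the SREBP transcription factors in the endoplasmic reticulum, and transcription of cholesterol synthesis enzymes falls. Oxysterols and the precursor desmosterol activate the nuclear receptor LXR, which induces the exporters ABCA1 and ABCG1. Oxidised lipids can also release NRF2 from KEAP1, and NRF2 induces thioredoxin, glutathione and NADPH-producing enzymes. Loss of cholesterol synthesis and activation of LXR are both known to bear on interferon responses in macrophages. Whether either does so in these libraries, and in which direction, was not tested.

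Stretches of RefSeq promoters (GRCm38.p6) are shown so that matches to elements known from these pathways can be read in 1 gene or a few of each, 20 bases to either side of a match in capitals, read 5′ to 3′ on the strand of the gene. Positions count from 0 at the annotated start. The first holds a sterol response element (SRE, searched as TCANNCCAC) in the gene of the synthase that begins the mevalonate pathway, at -137 to -129 in Hmgcs1, on chromosome 13 (chr13:119690194-119690242, plus strand). The second holds the direct repeat that LXR binds (DR4, searched as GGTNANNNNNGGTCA, here on the other strand) at -67 to -53 in Abca1, on chromosome 4 (chr4:53159928-53159982, minus strand). The next 3 hold an interferon-stimulated response element (ISRE, searched as GAAANNGAAA): -104 to -95 in Ifit1, on chromosome 19 (chr19:34640765-34640814, plus strand) and read on the other strand, -72 to -63 in Isg15, on chromosome 4 (chr4:156200861-156200910, minus strand), and -14 to -5 in Oas1a, on chromosome 5 (chr5:120907510-120907559, minus strand). The last pair hold an antioxidant response element (ARE, searched as TGACNNNGC, here on the other strand) at -133 to -125 in Prdx1, on chromosome 4 (chr4:116685446-116685494, plus strand) and -92 to -84 in Txnrd1, on chromosome 10 (chr10:82859094-82859142, plus strand).
Hmgcs1: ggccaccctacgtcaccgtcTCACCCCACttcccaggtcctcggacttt
Abca1: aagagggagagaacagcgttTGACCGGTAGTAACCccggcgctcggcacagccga
Ifit1: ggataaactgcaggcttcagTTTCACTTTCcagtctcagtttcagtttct
Isg15: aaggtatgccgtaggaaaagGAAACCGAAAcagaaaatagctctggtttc
Oas1a: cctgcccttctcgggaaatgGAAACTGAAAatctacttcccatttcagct
Prdx1: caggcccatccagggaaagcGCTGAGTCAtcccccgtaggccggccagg
Txnrd1: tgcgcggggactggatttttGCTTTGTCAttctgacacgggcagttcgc

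Over both strands of the 300-base promoter windows of all 27025 genes in the RefSeq table, the SRE was found in 4.78%, the DR4 in 0.226%, the ISRE in 3.99% and the ARE in 14%. The DR4 spelling was modelled on the element known in Abca1, so its match there is no independent hit. Windows could be matched by symbol for 242 of the 342 genes called below. Only 13 of the 19 called sterol genes and 23 of the 29 called interferon genes had one, under 80%. Shares over those lists are therefore void, and only counts among genes with a window are given. The SRE was in 1 of the 13 sterol genes, the Hmgcs1 shown above. The ISRE was in 14 of the 23 interferon genes, and in 19 of 43 not called in the same lists. Of the 13 oxidant-defence genes called higher, 11 had a window, and 3 of the 11 (27.3%) held the ARE. Among genes not called in the same lists, without that of NRF2 and its regulators, 12 of 53 (22.6%) held it. Of all 14543 genes tested 9637 had a window, also under 80%, and 17.2% of those held it. Isg15 held 3 overlapping ISRE matches, of which 1 is in capitals. Ifit1 held another at -85 to -76 and Oas1a another at -20 to -11, neither in capitals. The CCAAT box, also searched, was in 41.1% of all windows. A match is a description of letters in this window and not a binding site.

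**Figure D1:**
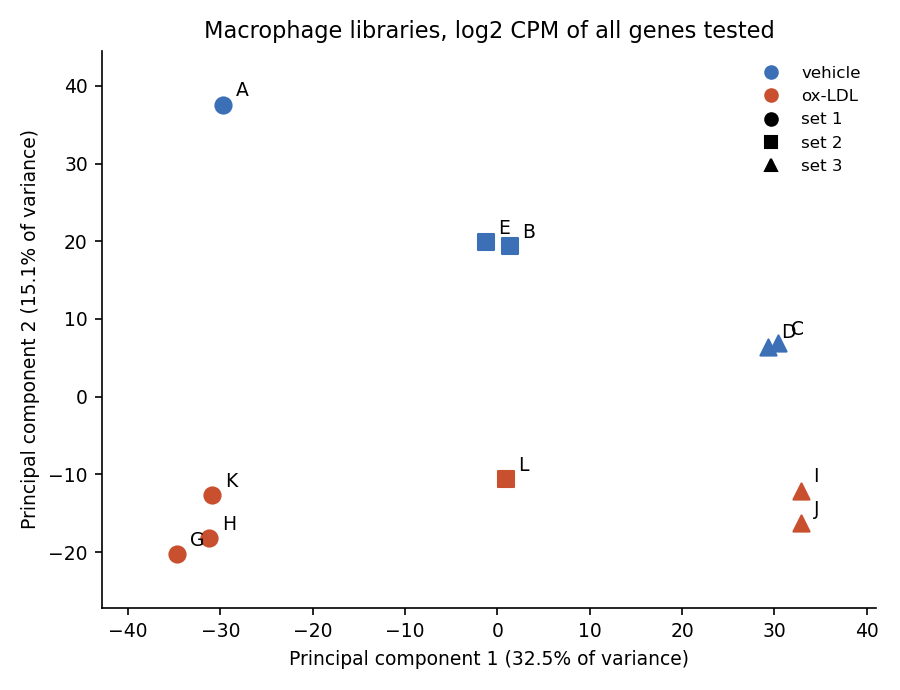
Principal components of log2 CPM of the 11 macrophage libraries. The x axis (32.5% of variance) separates 3 sets of libraries that hold both treatments, and the y axis (15.1%) places the 5 vehicle libraries above the 6 ox-LDL libraries.

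Total counts ran from 37330389 to 50257111 in vehicle and from 40709972 to 49588140 in ox-LDL libraries, and each library had counts for 20331 to 21525 genes. The libraries carried macrophage transcripts: the 20 macrophage markers (Lyz2, Csf1r and Cd68 the highest) summed to 33685 to 44151 CPM in vehicle and 29965 to 45518 CPM in ox-LDL libraries. CPM here are counts scaled to a common library size, with TMM factors over the 11 libraries. Of these 20, Fcgr1 and C1qc were lower by the test below, and the median log2 fold change was -0.25. C1qc stayed so only without C, I or K (otherwise adjusted p up to 0.0941). Over the 11 libraries neutrophil markers summed to 128 to 328 CPM and erythroid markers to 3.97 to 27.5 CPM. NK cell markers summed to at most 0.338 CPM, with Ncr1, Nkg7, Gzma, Gzmb and Klra8 at 0 in all. The largest axis of variance was not the treatment. Libraries A, G, H and K stood at one end (set 1), C, D, I and J at the other (set 3) and B, E and L between (set 2). The sets were drawn from the data, and what they stand for was not tested. Cell-cycle transcripts followed them, with summed levels of 384 to 420 CPM in set 1, 464 to 540 CPM in set 2 and 608 to 712 CPM in set 3. Neutrophil markers also separated the sets, in the other order, at 269 to 328, 209 to 261 and 128 to 179 CPM. Erythroid markers did so at 3.97 to 10.0, 10.6 to 15.2 and 20.8 to 27.5 CPM.

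More genes were lower than higher with ox-LDL. Of 14543 genes tested with edgeR's quasi-likelihood test, 142 were higher (0.976%) and 200 lower (1.38%), 342 in all (2.35%) at an adjusted p under 0.05, here termed called. Changes of at least 2-fold were found in 8 higher and 50 lower genes. The median log2 fold change of all genes tested was 0.00029. The 5 vehicle and 6 ox-LDL libraries did not overlap in 485 genes (3.33%), 295 of them called. A fit with the 3 library sets as a covariate, added once the sets had been noticed, called 768 genes (5.28%), 278 higher and 490 lower, and 334 of the 342 were among them. Scaling by total counts in place of TMM gave 92 higher and 334 lower, against 142 and 200. DESeq2 called 305 higher and 393 lower.

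The number of calls changed with single libraries. Without B there were 53 higher and 97 lower genes, without E 51 and 99, without H 60 and 128 and without L 67 and 120. Higher calls also fell to 87 without C, 82 without D, 85 without G and 89 without K. Leaving out set 1, which holds 1 of the vehicle libraries (A), left 35 higher and 82 lower. Of the 342 genes, 126 stayed called whichever library was left out and 34 under all 21 alternatives. In 1 fit over all 4 groups of the series 6 genes were higher and 74 lower, and 74 of the 342 were among them. Among those it called were Srebf2, Stard4, Insig1, Hmgcs1, Idi1, Sqle, Cyp51, Msmo1, Sc5d, Abcg1, Srxn1, Ifit1, Isg15, Irf7, Irf9, Irgm2, Ifi47, H2-Ab1, Cd74, Cx3cr1, Ccr3, Gpr34 and Pecam1, with adjusted p of at most 0.038. It did not call Abca1, Cd36, Lipa, Psap, Prdx1, Txnrd1, Nqo1, Oas1a, Oas2, Ifitm3, Fcgr1 or Cd14, among others (adjusted p from 0.0514 to 0.684 for these). Unless another library is named below, each gene given as called stayed so whichever library was left out.

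**Figure D2:**
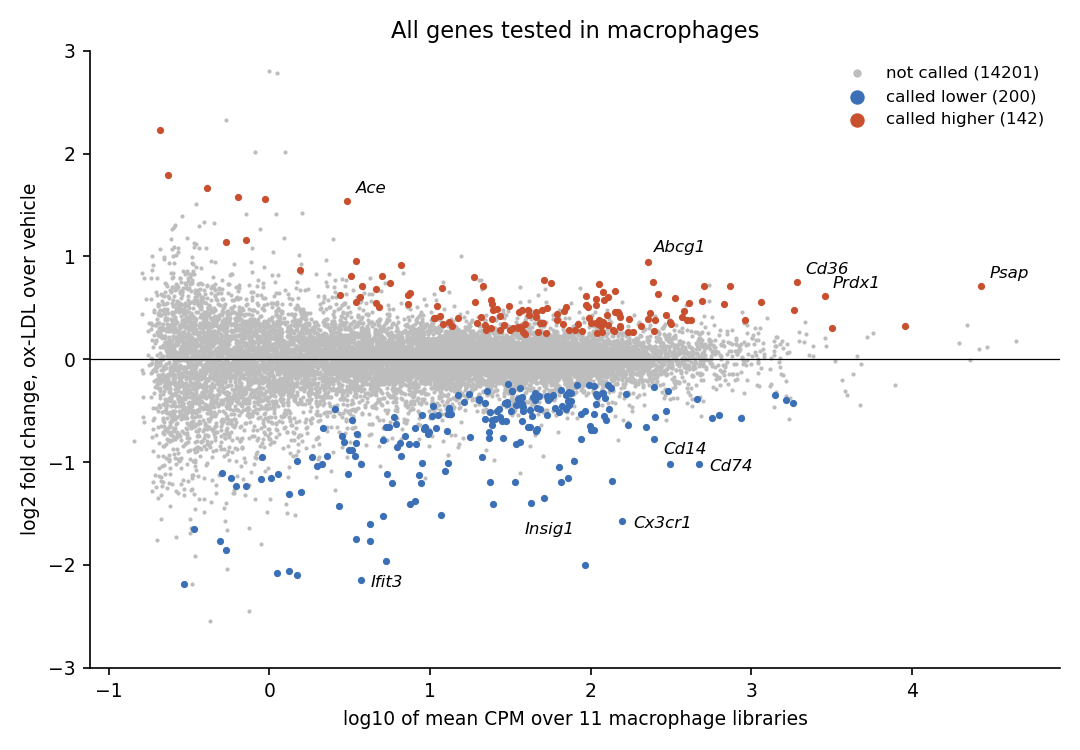
Log2 fold change of ox-LDL over vehicle (y axis) against the log10 of mean CPM over 11 libraries (x axis) for each of the 14543 genes tested. The 142 genes called higher have a median of 0.45 and the 200 called lower a median of -0.60.

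Genes of cholesterol synthesis and its regulation fell, 19 of the 33 tested. Insig1 (ENSMUSG00000045294; GRCm38 chromosome 5, 28071363 to 28078662), the retention protein itself, was at 64.2, 66.7, 62, 60.7 and 66.6 CPM in vehicle libraries A to E. In ox-LDL libraries it ran from 21.9 to 25.9 CPM (median 24.8). Every ox-LDL library lay below every vehicle library by a wide margin, and the log2 fold change was -1.39 ± 0.06 (SE; adjusted p = 2.48e-08). Within sets 1, 2 and 3 the log2 ratio was -1.47, -1.37 and -1.27. Of 11 tested genes in the list of SREBP regulators, 4 fell and 0 rose, with a median of -0.13. Srebf2, which encodes the SREBP that drives cholesterol genes, was at 99.9, 133, 129.8, 153 and 143 CPM with vehicle and from 77.8 to 90.9 CPM (median 80.8) with ox-LDL, a log2 change of -0.69 ± 0.09 (adjusted p = 0.00161). Srebf1, whose product drives fatty acid genes more than cholesterol genes, was not called at 0.13 ± 0.08, from 99.7 ± 9.32 to 109 ± 8.71 CPM (SD, n = 5 and 6). Stard4, a cholesterol carrier of the cytosol, went from 12.2 ± 1.14 to 4.69 ± 0.860 CPM, a log2 change of -1.38 ± 0.13 (adjusted p = 8.59e-05). Scap, Insig2 and Mbtps1, which hold and cut SREBPs, had log2 fold changes of -0.02, -0.03 and 0.07 and were not called.

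From acetyl-CoA to lanosterol, 9 of 12 tested enzymes fell and 0 rose, with a median of -0.71. Hmgcs1 (ENSMUSG00000093930; GRCm38 chromosome 13, 119690379 to 119708260), whose promoter stretch with the SRE is shown above, was at 62.8, 63.2, 60.3, 51.8 and 51.9 CPM with vehicle and from 32 to 40.02 CPM (median 35.6) with ox-LDL, a log2 change of -0.69 ± 0.08 (adjusted p = 0.000649). The groups were well apart. Idi1, which isomerises isopentenyl diphosphate, changed most. It was at 6.68, 6.92, 6.79, 6.30 and 6.85 CPM with vehicle and from 1.201 to 3.74 CPM (median 1.98) with ox-LDL, a log2 change of -1.60 ± 0.22 (adjusted p = 0.00185). Ggps1, which makes geranylgeranyl diphosphate on a branch away from sterols, was not called at 0.02. From lanosterol to cholesterol, 6 of 10 enzymes fell and 0 rose, with a median of -0.72. Sc5d, the sterol desaturase, went from 36.5 ± 2.65 to 21.6 ± 2.58 CPM, a log2 change of -0.76 ± 0.09 (adjusted p = 0.000723). Dhcr7, Nsdhl and Ebp of the same branch had log2 fold changes of -0.46, -0.28 and -0.10 and were not called. Over the 3 lists 19 of 33 members were called lower, 17 of them whichever library was left out, and the number ran from 17 to 20 over the fits that left out a library. Few fatty acid genes passed the test: 1 of 18 rose (Acsl4, 0.29 ± 0.07), 1 fell (Acsl3, -0.67 ± 0.13) and the median was 0.07. Among the fits with 1 library left out, Acsl4 stayed called only without A or I (otherwise up to 0.118).

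**Figure D3:**
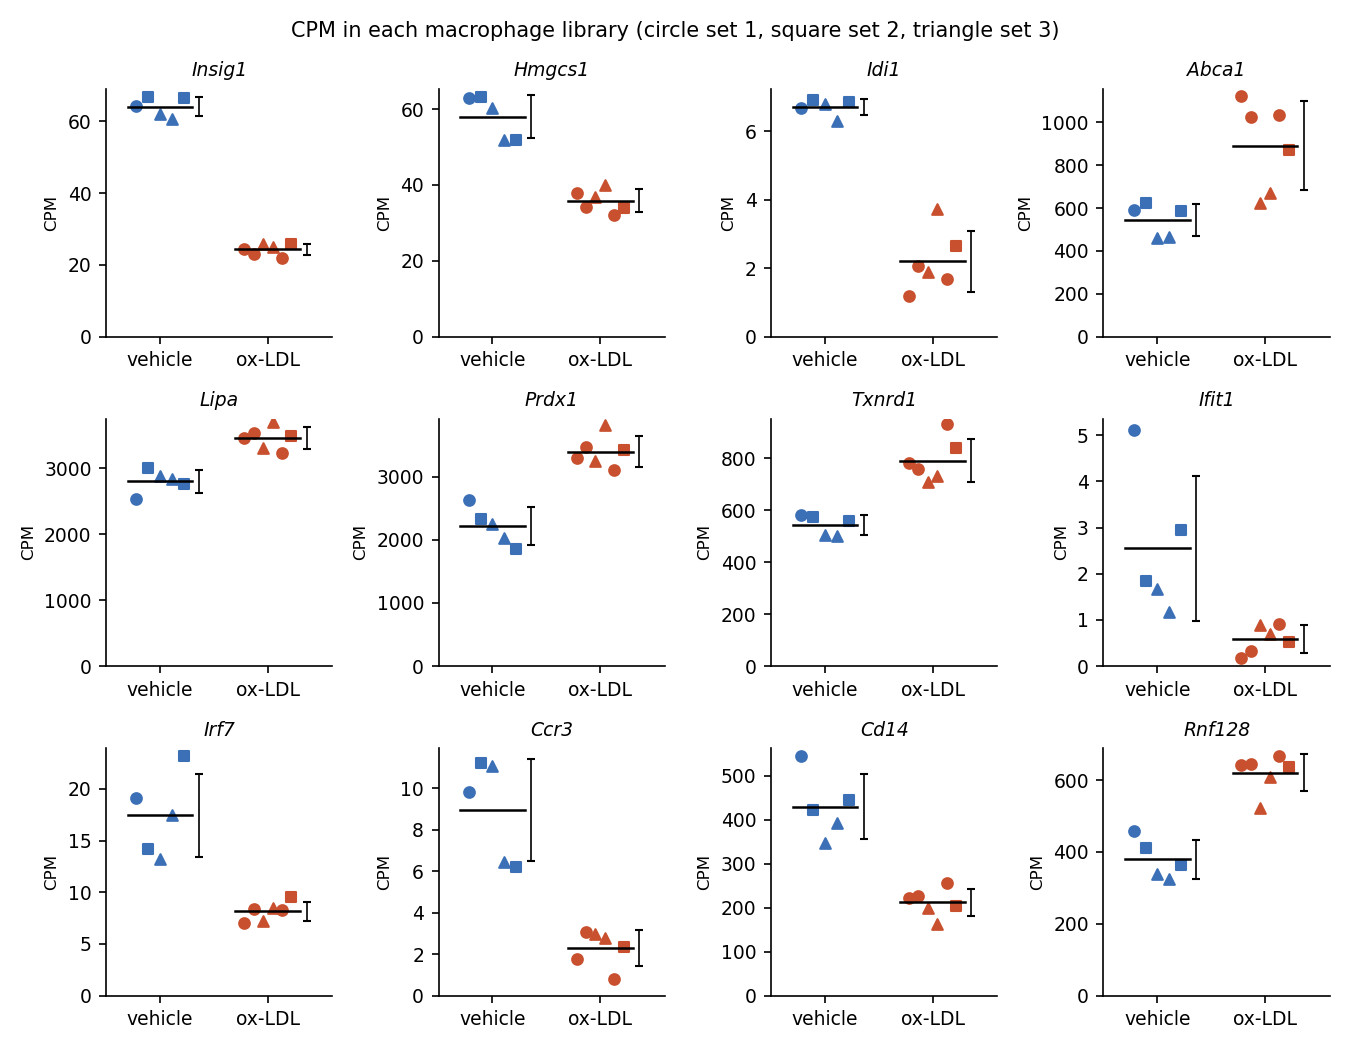
CPM (y axis) of 12 genes in each library, vehicle in blue and ox-LDL in red, with a bar at the group mean and an error bar of 1 SD. Symbols mark the 3 library sets. Insig1, Hmgcs1, Ccr3 and Cd14 separate the treatments within each set, and Abca1 and Ifit1 vary with the set as well.

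Cholesterol export genes rose, and most of the LXR list did not. Of 17 tested LXR receptors, exporters and apolipoproteins, 3 rose, 0 fell and the median was 0.15. Abca1 (ENSMUSG00000015243; GRCm38 chromosome 4, 53030787 to 53159895), which loads cholesterol onto apolipoprotein A-I, was at 588, 623, 459, 464 and 585 CPM with vehicle and from 623 to 1122 CPM (median 948) with ox-LDL. The 2 ox-LDL libraries of set 3 (I and J, 623 and 670 CPM) lay just at or above the highest vehicle library and the rest well above it. Its change was 0.71 ± 0.15 (adjusted p = 0.0281), and with 1 library left out it stayed called only without A, I or J (otherwise up to 0.076). The log2 ratio was 0.85 in set 1, 0.53 in set 2 and 0.49 in set 3. Abcg1, which exports cholesterol to larger acceptors, was at 136 to 168 CPM with vehicle and 249 to 321 CPM with ox-LDL, a log2 change of 0.94 ± 0.08 (adjusted p = 7.47e-05). Mylip, a ubiquitin ligase induced by LXR, was at 99, 99.4, 91.7, 86.5 and 98.9 CPM with vehicle and from 110.5 to 161 CPM (median 149.5) with ox-LDL, a log2 change of 0.57 ± 0.10 (adjusted p = 0.00956). Apoe, an apolipoprotein that macrophages secrete, ran from 17384 to 37097 CPM with vehicle and from 17161 to 34034 CPM with ox-LDL and was not called (0.10 ± 0.20). Nr1h3, which encodes LXR alpha, was not called either (-0.40 ± 0.17, adjusted p = 0.283).

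Few genes of lipid uptake and storage passed the test. Cd36 (ENSMUSG00000002944; GRCm38 chromosome 5, 17781690 to 17888801), which binds and takes up ox-LDL, was at 1592, 1555, 1537, 1247 and 1138 CPM with vehicle and from 2153 to 2549.6 CPM (median 2391) with ox-LDL, with no overlap, a log2 change of 0.75 ± 0.10 (adjusted p = 0.0013). Of 17 scavenger and lipoprotein receptors, 2 rose and 1 fell. The other riser was Lrp8, a receptor for apolipoprotein E (0.55 ± 0.12, adjusted p = 0.0313), which stayed called only without C, I or J (otherwise up to 0.094). Msr1, the class A scavenger receptor, stood at 209 ± 15.3 and 212 ± 39.7 CPM. Plin2, which coats lipid droplets, was at 1318, 1193, 1319.8, 1528 and 1226 CPM with vehicle and from 1256 to 1803 CPM (median 1518) with ox-LDL, and its 0.21 ± 0.09 was not called. Of 22 genes for PPAR receptors, droplets and fatty acid use, 0 rose and 1 fell (Ucp2, a mitochondrial carrier, -0.42 ± 0.07). Of 20 genes known from lipid-associated macrophages edgeR called 0 (8 had an unadjusted p under 0.05, DESeq2 called 2, limma voom 0 and the fit with the library sets 2 higher), with Trem2 at 950.1 ± 83.1 and 945 ± 82.5 CPM and Gpnmb at 19173 ± 2239 and 24095 ± 2954 CPM.

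Lysosomal genes rose singly. Of 25 hydrolases and membrane proteins 3 rose and 0 fell, with a median of 0.06. Scaled by total counts 1 of the 3 stayed called, Psap (adjusted p = 0.0373), with Lipa at 0.0659 and Gla at 0.0864, and the median was 0.01. Lipa (ENSMUSG00000024781; GRCm38 chromosome 19, 34492318 to 34527474), the acid lipase that frees cholesterol from lipoprotein esters, was at 2537, 3008, 2882, 2836 and 2758 CPM with vehicle and from 3231 to 3700.4 CPM (median 3474) with ox-LDL, a small but non-overlapping difference of 0.30 ± 0.06 (adjusted p = 0.0248). It was not called without D, E, H or L (up to 0.0703). Psap, the precursor of sphingolipid activator proteins, was at 12878, 19233, 22625, 24647 and 20279 CPM with vehicle and from 25491 to 40392 CPM (median 31174) with ox-LDL. Vehicle library A was low, and G and H were high. The change was 0.71 ± 0.16 (adjusted p = 0.0356), 1.54 in set 1 and 0.18 in set 3, and it stayed called only without A, D, I or J (otherwise up to 0.0935). Gla, the alpha-galactosidase, went from 194 ± 39 to 266 ± 15.1 CPM and was called only with all libraries or without C or D (otherwise up to 0.133). All 16 tested subunits of the proton pump that acidifies lysosomes had positive log2 fold changes, from 0.02 to 0.39 with a median of 0.17, and edgeR called 0. Scaled by total counts 15 of the 16 stayed positive. An unadjusted p under 0.05 was found for 5, and DESeq2 called 3 higher, limma voom 0 and the fit with the library sets 1 higher. Ctsc, the protease that activates granule serine proteases, fell from 691 ± 38.6 to 466 ± 56.4 CPM, a log2 change of -0.57 ± 0.08 (adjusted p = 0.00305), alone among 15 cathepsins and cystatins.

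Genes of oxidant defence rose in part. Over 5 lists, 13 of 90 tested members rose and 3 fell, 68 had a positive sign, and the median was 0.14. Without any 1 of B, C, D, E, H or L the number that rose dropped to between 6 and 8. Of 17 thioredoxin and peroxiredoxin genes with catalase, 5 rose and 1 fell. Prdx1 (ENSMUSG00000028691; GRCm38 chromosome 4, 116685544 to 116700822), which reduces peroxides and whose ARE stretch is shown above, was at 2633, 2331, 2252, 2034 and 1855 CPM with vehicle and from 3102 to 3821 CPM (median 3356) with ox-LDL, a log2 change of 0.61 ± 0.09 (adjusted p = 0.0029). Txnrd1, the reductase that recharges thioredoxin, was at 582, 573, 504, 502 and 559.8 CPM with vehicle and from 708 to 932 CPM (median 769.5) with ox-LDL, a log2 change of 0.54 ± 0.08 (adjusted p = 0.0029). In both genes the lowest ox-LDL library was above the highest vehicle library. Srxn1, which repairs overoxidised peroxiredoxins, was tight with vehicle at 196 to 209 CPM and wider with ox-LDL at 253 to 356 CPM. Txnip, the thioredoxin inhibitor, was the 1 that fell, at 152, 126, 115, 109.6 and 131 CPM with vehicle and from 83.1 to 89.8 CPM (median 88.5) with ox-LDL, a log2 change of -0.53 ± 0.08 (adjusted p = 0.00274).

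Of 27 glutathione genes 2 rose and 2 fell. Gsr, glutathione reductase, rose from 312 ± 14.5 to 417 ± 45.6 CPM, a log2 change of 0.42 ± 0.08 (adjusted p = 0.0144). Gpx1, the main cytosolic glutathione peroxidase, was at 919, 715, 707, 757 and 697 CPM with vehicle and from 426 to 579.9 CPM (median 543) with ox-LDL, a log2 change of -0.54 ± 0.09 (adjusted p = 0.00809). Gclm, a subunit of the enzyme that begins glutathione synthesis, was not called (0.57 ± 0.22, adjusted p = 0.243; 0.0103 with the library sets as a covariate), with vehicle libraries C and D at 284 and 286 CPM and A, B and E at 453 to 581. Of 22 genes for aldo-keto reductases, quinone reductase and NADPH supply, 4 rose and 0 fell. Nqo1, the quinone reductase, was scarce and went from 3.47 ± 0.589 to 5.60 ± 0.551 CPM, a log2 change of 0.69 ± 0.13 (adjusted p = 0.0137). Taldo1, transaldolase of the pentose phosphate pathway, went from 783 ± 88.2 to 1023 ± 52.9 CPM, a log2 change of 0.38 ± 0.08 (adjusted p = 0.0192), and was not called without B or D (up to 0.0575). Of 16 iron genes 2 rose. Ftl1, ferritin light chain, went from 7934 ± 618 to 9918 ± 596 CPM, a log2 change of 0.32 ± 0.07 (adjusted p = 0.0298). It stayed called only without A, I, J or K (otherwise up to 0.0873) and may share reads with the pseudogenes Ftl1-ps1 and Ftl1-ps2, which was not tested. Hmox1, heme oxygenase 1, was not called: 986, 836, 615, 624 and 857 CPM with vehicle and from 931 to 1164 CPM (median 944) with ox-LDL, a log2 change of 0.35 ± 0.12 (adjusted p = 0.177; 0.0337 with the library sets as a covariate). Nfe2l2, which encodes NRF2, was not called at -0.11 ± 0.06, and edgeR called 0 of 8 genes for NRF2 and its regulators (2 at an unadjusted p under 0.05, 1 by DESeq2 and 0 by limma voom).

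**Figure D4:**
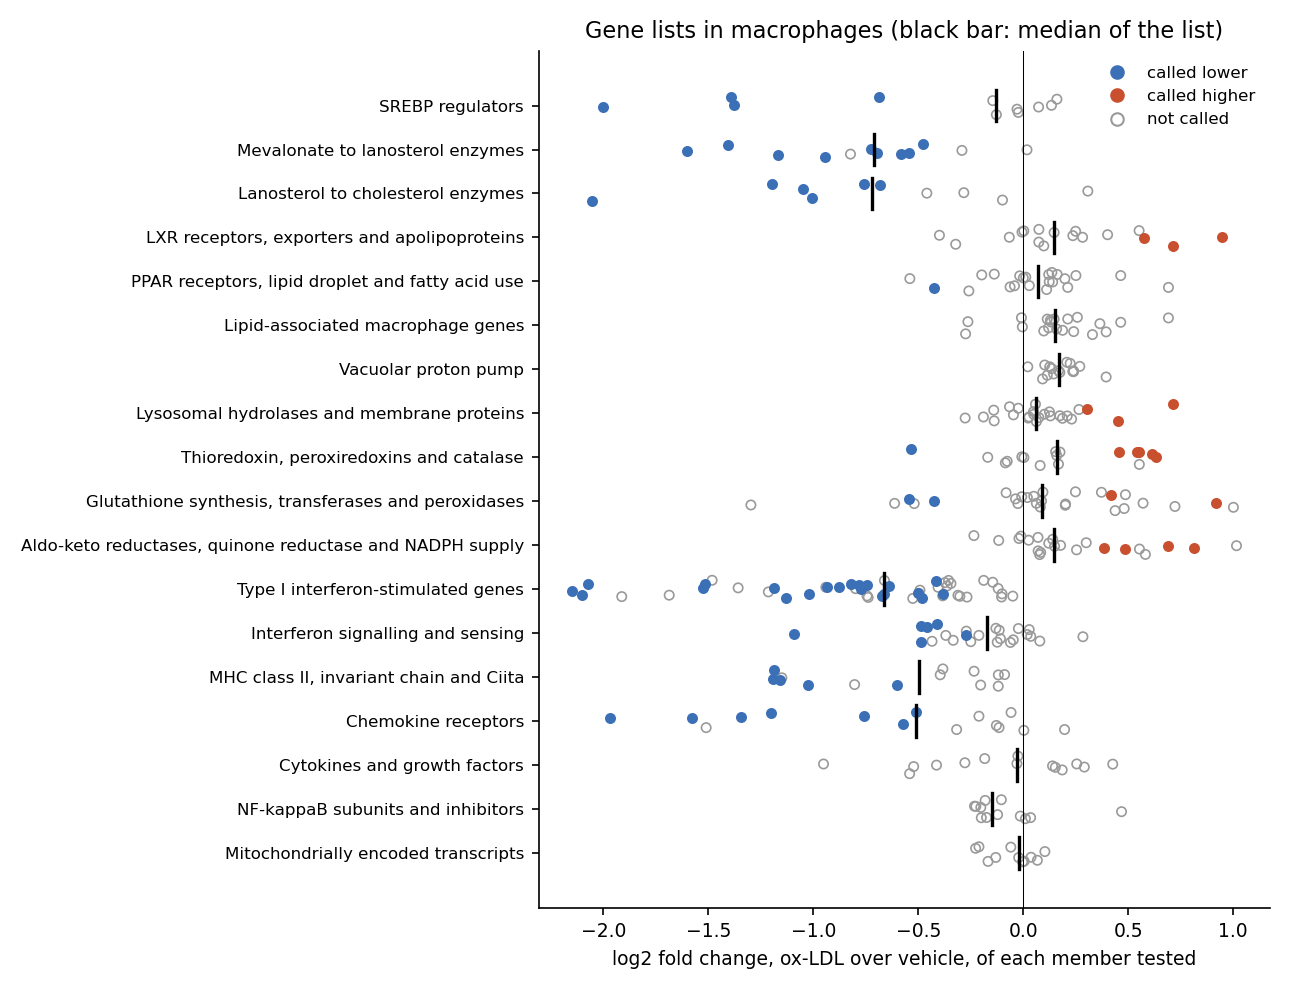
Log2 fold change of ox-LDL over vehicle (x axis) for each tested member of 18 gene lists (rows), filled where called, with a black bar at the list's median. Medians lie at -0.71 and -0.72 for the sterol enzymes and -0.66 for type I interferon-stimulated genes, and at 0.15 for the LXR list.

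Many interferon-stimulated genes fell. All 49 tested members of the type I list had negative log2 fold changes, 21 of them called lower and 0 higher, with a median of -0.66 beside 0.00029 over all genes. Ifit1 (ENSMUSG00000034459; GRCm38 chromosome 19, 34640871 to 34650009), an RNA-binding antiviral protein, was at 5.11, 1.85, 1.67, 1.18 and 2.95 CPM with vehicle and from 0.183 to 0.910 CPM (median 0.610) with ox-LDL. Vehicle libraries A and E were highest, and no ox-LDL library reached the lowest of them. The change was -2.10 ± 0.42 (adjusted p = 0.0203), and it was not called without E or L (up to 0.0584). The log2 ratio was -3.18 in set 1 and -0.77 in set 3. Isg15, a ubiquitin-like modifier, went from 4.20 ± 0.817 to 2.28 ± 0.474 CPM, a log2 change of -0.88 ± 0.18 (adjusted p = 0.0212), and was not called without E (adjusted p = 0.0684). Oas1a, a sensor of double-stranded RNA, fell from 45.4 ± 5.71 to 32.1 ± 1.62 CPM, a log2 change of -0.50 ± 0.08 (adjusted p = 0.00549). Promoter stretches of these 3 genes with the ISRE are shown above. Oas2 was at 5.86, 4.91, 4.54, 4.67 and 5.62 CPM with vehicle and from 2.05 to 3.22 CPM (median 2.49) with ox-LDL, a log2 change of -1.02 ± 0.13 (adjusted p = 0.0013). Ifitm3, a membrane protein that blocks viral entry, was at 130.4, 96.6, 97.2, 114 and 124 CPM with vehicle and from 60.6 to 74.8 CPM (median 64.5) with ox-LDL, a log2 change of -0.77 ± 0.09 (adjusted p = 0.000634).

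Of 24 genes for interferon signalling and sensing 6 fell and 0 rose. Irf7, the factor that amplifies interferon production, was at 19.1, 14.2, 13.2, 17.5 and 23.1 CPM with vehicle and from 7.05 to 9.58 CPM (median 8.33) with ox-LDL, a log2 change of -1.09 ± 0.14 (adjusted p = 0.00118). Irf9, part of the complex that binds the ISRE, went from 57.1 ± 4.48 to 40.8 ± 3.22 CPM, a log2 change of -0.49 ± 0.07 (adjusted p = 0.00307). The receptor chains Ifnar1 and Ifnar2 had log2 fold changes of -0.02 and -0.11 and were not called. Of 11 GTPases induced by interferon gamma 2 fell, Irgm2 and Ifi47, with a median of -0.49. Over the 3 lists 29 of 84 members were called lower, and the number was 17 without E and 21 to 33 without any other library. Leaving out the 4 libraries of set 1 left 10, and leaving out set 3 left 34.

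Genes of antigen presentation on MHC class II were lower with ox-LDL. All 14 tested genes of the MHC class II list had negative log2 fold changes, 5 called lower, with a median of -0.50. H2-Ab1 (ENSMUSG00000073421; GRCm38 chromosome 17, 34257689 to 34269419), the class II beta chain, was at 188, 178, 222, 216 and 171 CPM with vehicle and from 54.9 to 135 CPM (median 74.1) with ox-LDL. Libraries I and J of set 3 were the highest with ox-LDL (135 and 114 CPM) and still under each vehicle library. The change was -1.19 ± 0.20 (adjusted p = 0.00744). Cd74, the invariant chain, was at 565, 600.2, 790.0, 733 and 569.6 CPM with vehicle and from 196 to 503 CPM (median 281) with ox-LDL, a log2 change of -1.02 ± 0.22 (adjusted p = 0.0288), and stayed called only without A, I, J or K (otherwise up to 0.0752). Ciita, the transcriptional switch of the class II genes, was not called: 2.52, 2.64, 3.66, 3.22 and 2.04 CPM with vehicle and from 0.418 to 2.44 CPM (median 1.15) with ox-LDL, a log2 change of -1.15 ± 0.36 (adjusted p = 0.126). With the library sets as a covariate it was called lower (-1.05 ± 0.25, adjusted p = 0.0229). Without B, C, D, G or L 2 of the list were called, without E or H 3 and without I 7. Of the dendritic cell markers, 14 of 14 tested had negative log2 fold changes, 1 called (Tcf4, -0.50 ± 0.08). The 20 listed (Cst3, Tcf4 and Bst2 the highest) summed to 1475 to 1924 CPM with vehicle and 1271 to 1481 CPM with ox-LDL. Flt3, Xcr1, Clec9a, Itgae, Siglech and Ccl17 of the list had too few counts to be tested, so the sum is no count of dendritic cells. With vehicle, library C was lowest for this sum and highest for that of the class II list (1406 CPM). With ox-LDL, library I was highest and K lowest for both sums (910 and 421 CPM for class II). The part of the dendritic cell markers in the class II result was not tested, and in bulk RNA fewer cells of a type and less RNA per cell cannot be told apart. Of 18 class I genes 1 was called lower (Tap1, -0.37 ± 0.09), and the median was -0.09. Tap1 was called only with all libraries or without B or H (otherwise up to 0.122).

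Receptors for chemokines and chemoattractants fell. Of 15 tested, 7 fell and 0 rose, with a median of -0.51. Ccr3 (ENSMUSG00000035448; GRCm38 chromosome 9, 124021972 to 124031689), an eosinophil receptor, was at 9.82, 11.2, 11.1, 6.46 and 6.19 CPM with vehicle and from 0.821 to 3.06 CPM (median 2.56) with ox-LDL, a log2 change of -1.97 ± 0.28 (adjusted p = 0.0025). Its log2 ratio was -2.33, -1.84 and -1.58 in sets 1, 2 and 3. The 8 eosinophil markers, Ccr3 among them, summed to 12.4 to 29.3 CPM with vehicle and 3.11 to 16.6 CPM with ox-LDL, with Il5ra and Ear6 at 0. Cx3cr1, the fractalkine receptor, was at 200.1, 180.4, 173, 249 and 434 CPM with vehicle and from 35.8 to 154 CPM (median 73.2) with ox-LDL. Vehicle library E was the highest, and the groups did not overlap. The change was -1.58 ± 0.37 (adjusted p = 0.0414), and it was called only with all libraries or without K (otherwise up to 0.122). Cxcr4, the receptor for CXCL12, overlapped between groups, went from 75.6 ± 7.82 to 53.1 ± 10.7 CPM (-0.51 ± 0.12) and stayed called only without C, G or H (otherwise up to 0.125). C5ar1, the C5a receptor, went from 1044 ± 158 to 701 ± 119.7 CPM, a log2 change of -0.57 ± 0.12 (adjusted p = 0.0281), not called without any 1 of A, B, E, J, K or L (up to 0.0847). Classical monocyte markers summed to 611 to 1274 CPM with vehicle and 479 to 939 CPM with ox-LDL, and nonclassical ones to 787 to 1313 CPM and 534 to 952 CPM. Of 11 nonclassical markers tested 2 fell, Cx3cr1 among them, and 1 rose (Ace, given below). The part of these 3 marker lists in these results was not tested. The number of receptors called lower was 2 without B or E, 3 without L, 4 without A and 5 or 6 without any other library. Of 14 chemokine ligands edgeR called 0 (2 at an unadjusted p under 0.05, 2 by DESeq2, 0 by limma voom and 3 lower with the library sets as a covariate).

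Single surface receptors of phagocytes fell, and most of those listed did not pass the test. Cd14, the co-receptor for lipopolysaccharide and a marker of classical monocytes, was at 544, 422, 346, 391 and 444 CPM with vehicle and from 164 to 255 CPM (median 213) with ox-LDL. The highest ox-LDL library was under the lowest vehicle library, and the change was -1.02 ± 0.12 (adjusted p = 0.00076). It was the 1 of 15 genes on the list of Cd14 and Toll-like receptors that was called. Of 7 Fc receptors 2 fell, Fcgr1 and Fcgrt (the latter not called without B, E, K or L, up to 0.0695). Fcgr1, the high-affinity IgG receptor, was at 63.3, 46.2, 35.5, 38.9 and 45.5 CPM with vehicle and from 24.7 to 34 CPM (median 31.4) with ox-LDL, a log2 change of -0.60 ± 0.13 (adjusted p = 0.0322), and was not called without any 1 of B, E, H, J, K or L (up to 0.0798). Of 15 myeloid C-type lectins edgeR called 0 (4 at an unadjusted p under 0.05, 1 by DESeq2, 0 by limma voom and 4 with the library sets as a covariate), and of 14 Siglecs and inhibitory receptors 1 fell (Pilra, -0.82 ± 0.16), not called without B or E (up to 0.0576). Of 15 genes for pannexin, nucleotide receptors and ectonucleotidases 2 rose (Panx1, 0.77 ± 0.13, and P2ry1, 0.74 ± 0.16) and 1 fell, Gpr34. P2ry1 was not called without any 1 of B, E, G, H, J or L (up to 0.0868). Gpr34, a lysophosphatidylserine receptor, went from 17.9 ± 7.10 to 8.93 ± 2.15 CPM, a log2 change of -1.01 ± 0.24 (adjusted p = 0.0461), and was called only with all libraries or without C or D (otherwise up to 0.122). Pecam1, an adhesion molecule shared with endothelium, went from 7.70 ± 2.20 to 3.55 ± 1.53 CPM, a log2 change of -1.12 ± 0.27 (adjusted p = 0.0469), called only with all libraries or without G or H (otherwise up to 0.136). The 11 endothelial markers, Pecam1 among them, summed to 34.3 to 66.9 CPM with vehicle and 53.7 to 84.1 CPM with ox-LDL, with Tek, Emcn and Cldn5 at 0 in all 11 libraries. On the list of 20 macrophage markers, of which Fcgr1 is 1, 2 were called lower, and 6 with the library sets as a covariate. Adgre1 (F4/80) and Csf1r of that list had log2 fold changes of -0.25 ± 0.11 and -0.31 ± 0.17 and were not called, but with the covariate both were called lower (adjusted p = 0.00697 and 0.0105).

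Among other genes that rose, Ace (ENSMUSG00000020681; GRCm38 chromosome 11, 105967945 to 105989964), the angiotensin-converting enzyme, changed most of those named here. It was at 0.644, 1.51, 1.90, 1.86 and 1.61 CPM with vehicle and from 2.68 to 6.92 CPM (median 4.08) with ox-LDL, a log2 change of 1.54 ± 0.28 (adjusted p = 0.0131). Its level was low throughout, and the log2 ratio was 2.74 in set 1, 1.19 in set 2 and 1.03 in set 3. Ace is also on the list of nonclassical monocyte markers, whose summed level is given above. Rnf128, a ubiquitin ligase of endosomes, was at 458, 410.5, 339, 324 and 363 CPM with vehicle and from 522 to 666 CPM (median 640.2) with ox-LDL, a log2 change of 0.71 ± 0.10 (adjusted p = 0.00154). Bhlhe41, a transcriptional repressor of the circadian and macrophage programmes, was at 14.7 to 17.7 CPM with vehicle and 21.6 to 29 CPM with ox-LDL, a log2 change of 0.71 ± 0.09 (adjusted p = 0.0013). Chchd10, a small mitochondrial protein, went from 8.94 ± 1.12 to 14.5 ± 2.08 CPM, a log2 change of 0.69 ± 0.11 (adjusted p = 0.00585). Of 23 glycolysis and hypoxia genes 3 rose (Hk3, Pgk1 and Pgam1, at 0.55 ± 0.12, 0.28 ± 0.06 and 0.39 ± 0.05) and 0 fell. Hk3 and Pgk1 were not called without any 1 of 8 and of 5 libraries (up to 0.0947 and 0.0673), B, C, E and H among both.

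Cytokine, NF-kappaB, inflammasome and immediate-early genes did not pass edgeR's test of all 11 libraries with TMM and no term for the library sets. None of 14 cytokines and growth factors, 12 NF-kappaB genes, 16 inflammasome and cell death genes or 16 immediate-early genes passed the test, with medians of -0.03, -0.15, -0.00015 and -0.24. At an unadjusted p under 0.05 3, 3, 2 and 8 of them differed, DESeq2 called 1, 2, 1 and 4 and limma voom 0, 0, 0 and 1. Scaled by total counts, edgeR called 1, 1, 0 and 1. With the library sets as a covariate 2, 3, 2 and 4 were called, in both directions in each list. Il1b was at 7.37, 4.10, 2.59, 2.97 and 3.78 CPM with vehicle and from 0.473 to 4.08 CPM (median 1.68) with ox-LDL. Tnf was at 8.64, 7.80, 5.14, 5.78 and 8.08 CPM with vehicle and from 1.89 to 11 CPM (median 7.35) with ox-LDL. Tnf overlapped widely between the groups. For Il1b only ox-LDL libraries K and L (4.08 and 3.97 CPM) lay within the vehicle range, and G, H, I and J lay below it. Libraries I and J were lowest with ox-LDL in both genes. With the covariate Il1b was called lower (-1.18 ± 0.31, adjusted p = 0.0332) and Tnf was not (adjusted p = 0.595). Of 27 nuclear and 11 mitochondrially encoded respiratory chain genes and 23 cell-cycle genes 0 were called, with medians of 0.08, -0.02 and -0.09. At an unadjusted p under 0.05 6, 0 and 0 differed, and DESeq2 called 1, 0 and 0. Limma voom called 0 of each.

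**Figure D5:**
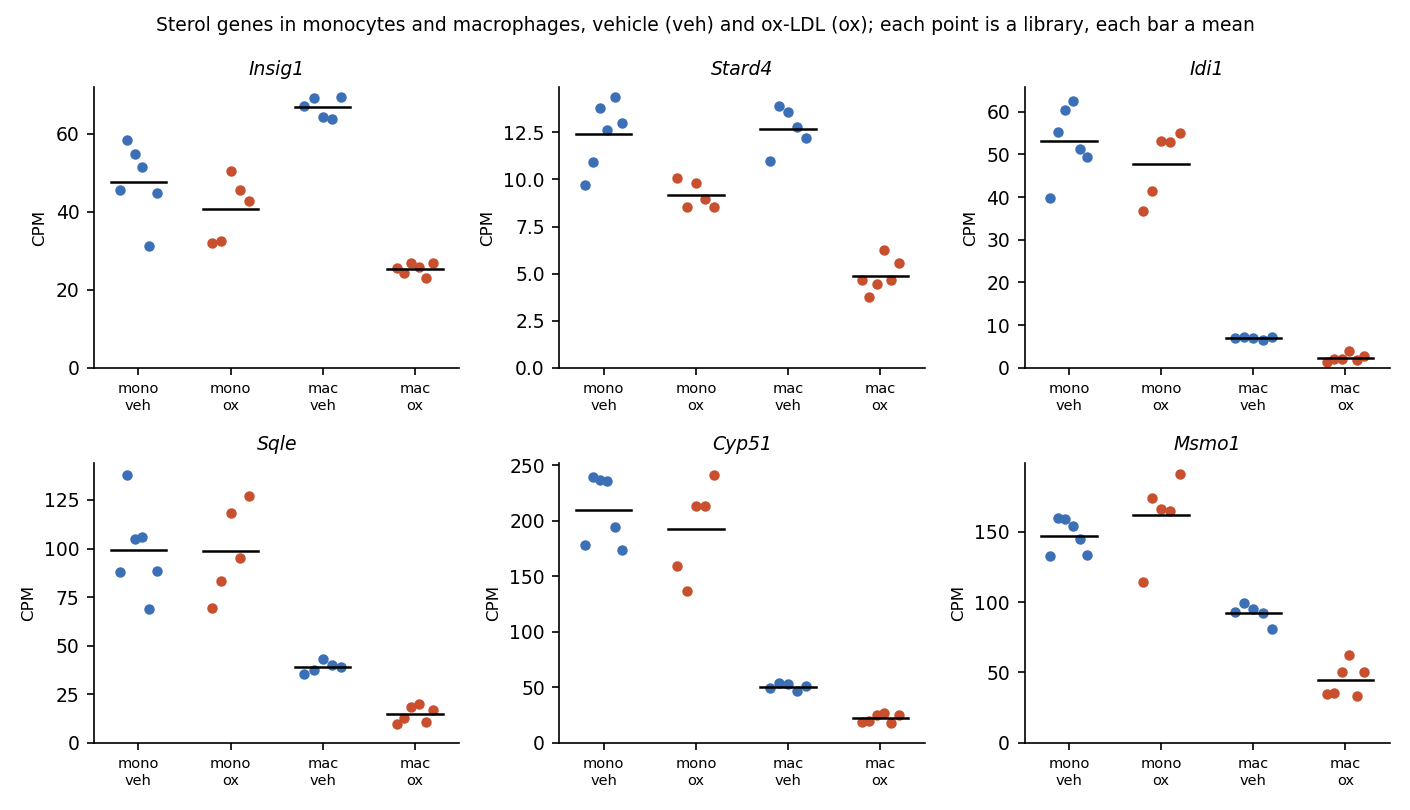
CPM (y axis, scaled over all 22 libraries) of 6 sterol genes in monocytes (mono) and macrophages (mac), with vehicle in blue and ox-LDL in red, and a bar at each mean. Vehicle and ox-LDL macrophages do not overlap in any of the 6 (3.33% of all genes tested in macrophages), and vehicle and ox-LDL monocytes overlap in all 6. The 6 were picked for a called difference between the cell types in these same libraries. The choice therefore sets much of this pattern, which is no separate support.

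For 6 sterol genes the fall with ox-LDL was larger in macrophages than in monocytes. An interaction term over all 22 libraries, which compares the 2 effects of ox-LDL, was called for 11 of 17466 genes (0.063%), 10 lower in macrophages and 1 higher. Of the 10, 6 were Idi1, Sqle, Msmo1, Insig1, Cyp51 and Stard4. On the scale of all 22 libraries Idi1 was far lower in vehicle macrophages than in vehicle monocytes, at 6.99 ± 0.23 CPM (SD, n = 5) against 53.1 ± 8.32 CPM (n = 6). The difference of its log2 effects was -1.45 ± 0.26 (adjusted p = 0.0354). For Insig1 vehicle macrophages held more than vehicle monocytes, 66.8 ± 2.74 CPM against 47.7 ± 9.65 CPM, and the difference was -1.16 ± 0.19 (adjusted p = 0.019). None of the 6 was called in all 22 fits that left out 1 library. Insig1 was called in 19 of them (adjusted p at most 0.0632), Msmo1 in 11, Idi1 and Cyp51 in 7, Sqle in 4 and Stard4 in 3. The number of genes called lower was 1 without A or monocyte library 8 or 9, and 3 without C, H, K or monocyte library 1 or 6. It was 4 without B, D, I or L, 5 without E, 6 without G, 16 without monocyte library 7 and 21 without monocyte library 10. No interaction was called for Abca1 (adjusted p = 0.635), Cd36 (0.37), Ifit1 (0.356) or H2-Ab1 (0.234), which does not show that they respond alike in the 2 cell types.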

How the data were processed

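Gene counts for 55487 genes were deposited for each library, with CPM, FPKM and TPM values of the same counts. Per the submitters' processing notes STAR 2.7.9a, the GRCm38 build and featureCounts 2.0.3 of Subread were used. Which strand was counted, how multi-mapping reads were handled and the annotation release: not given in the sources used here. The deposited CPM, FPKM and TPM followed from the deposited counts and lengths within a relative tolerance of 0.001 in every gene and were not tested. The CPM in the text are scaled by TMM factors (0.940 to 1.04) over the 11 macrophage libraries.

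Raw counts were tested with edgeR 4.0.16 in R 4.3.3: filterByExpr, TMM, a quasi-likelihood F test (2-sided), Benjamini-Hochberg adjustment over all genes tested and a threshold of 0.05. The SE is the log2 fold change over the root of F. The script was tested on simulated counts. Alternatives were DESeq2 1.42.0, limma voom 3.58.1, other scalings, low-count filters, 1 fit over all 4 groups and the omission of each library. The library sets and fits on them, the omissions in the interaction, the motif spellings and the text genes given per library were chosen after seeing the data. The members and gene lists were chosen with earlier results of these data known. Named genes were the 15 highest and 15 lowest log2 fold changes among called genes with a name, a mean of at least 5 CPM and groups that did not overlap, all called list members, the 2 highest-expressed members of lists with no call, a fixed set, and the 6 highest and 6 lowest called genes with only a clone-type name. Members named outside this rule were chosen after their values were seen. Some genes of the lists are not reported here by name. Promoters came from RefSeq (GRCm38.p6) and were matched by symbol.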

Additional observations from a re-analysis of the deposited data

Results flagged for a closer look

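In 3 of the 134 groups of libraries examined for 67 genes, 1 library stood far from the others of its group, and chance alone gives about 1 in 20. Srebf2 was highest in ox-LDL library G at 90.9 CPM, with the next at 82.5 CPM and the lowest at 77.8 CPM. Vehicle library A was lowest for Ctsc, at 624 CPM with the next at 697 CPM, and highest for Gpx1, at 919 CPM with the next at 757 CPM. For Gpx1 this library lay further from the other treatment than the rest of its group, and for Srebf2 and Ctsc the library lay nearer to it.

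The effect of ox-LDL differed between macrophages and monocytes by edgeR's interaction test for 7 of the genes given here. The macrophage minus monocyte difference in log2 fold change was -1.45 for Idi1, -1.40 for Sqle, -1.19 for Msmo1, -1.16 for Insig1, -1.08 for Cyp51 and -0.95 for Stard4. It was -2.22 for Rn7sk, a small nuclear RNA without a poly(A) tail that has near-identical copies in the genome, so its count is uncertain.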

How the results depend on the processing

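No paired analysis was possible because the libraries of the 2 groups share no replicate letters. In the comparison of ox-LDL with vehicle (142 genes higher, 200 lower), scaling by total counts gave 92 higher and 334 lower, DESeq2 305 and 393, 1 fit over all 4 groups 6 and 74, the 3 library sets as a covariate 278 and 490, and leaving out set 1 gave 35 and 82. Leaving out 1 library gave 51 to 151 higher and 97 to 197 lower. The other scaling, filters and limma voom stayed within 1.5 times. For the difference between cell types (1 higher, 10 lower), DESeq2 gave 18 and 44, total counts 0 and 5, and leaving out 1 library 0 to 23 and 1 to 21. Of the list members called, the 3 LXR genes became 1 without set 1. The 13 oxidant-defence genes became 20 with DESeq2, 26 with the set covariate, 7 without set 1 and 6 to 14 without 1 library. The 29 interferon genes became 45, 49, 10 and 17 to 33 under the same 4 changes. The 5 MHC class II genes became 8 with the set covariate, 1 without set 1 and 2 to 7 without 1 library. The 7 chemokine receptors became 4 without set 1 and 2 to 6 without 1 library. The 19 sterol genes stayed between 16 and 21 under all alternatives run on them. Leaving out libraries leaves fewer samples to the fit. The cause of the other changes was not tested. Of 2719 comparisons of the 130 called named genes with an alternative, 573 lost the call and 0 reversed. Of 1293 for the 62 named genes not called, 40 gained a call. Genes at a few CPM, such as Ifit1 and Nqo1, rest on fewer reads. Genes with near-identical copies (Ftl1, Gstm3, Ifit3, Rn7sk) are uncertain, since the handling of shared reads is not given in the sources used here.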

Other observations

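The genes below are in none of the lists above. They were chosen after the data were seen, from the called genes of each direction with the highest mean CPM. Creg1, Sort1, Dab2, Btg1, Glul and Rcbtb2 kept their call in edgeR's quasi-likelihood test when any 1 library was left out. Creg1, a glycoprotein of the lysosome, rose from 1522 ± 143 CPM (SD, n = 5) to 2121 ± 176 CPM (n = 6), a change of 0.48 ± 0.08 on the log2 scale (SE) with an adjusted p of 0.00585. Sort1, a sorting receptor that carries proteins to lysosomes, rose from 361 ± 20.7 CPM to 471 ± 42.7 CPM, or 0.39 ± 0.07 (adjusted p = 0.0157). Its log2 ratio was 0.61 in set 1 and 0.16 in set 3.

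Dab2, a clathrin adaptor, fell from 322 ± 16.04 CPM to 188 ± 16.8 CPM, or -0.78 ± 0.07 (adjusted p = 7.76e-05). Its lowest vehicle library stood at 306 CPM and its highest ox-LDL library at 209.8 CPM. Vehicle macrophages held far more Dab2 than vehicle monocytes, which stood at 10.1 ± 5.73 CPM. Btg1, an antiproliferative gene, fell from 212 ± 25.3 CPM to 136 ± 16.3 CPM, or -0.64 ± 0.10 (adjusted p = 0.00332). Glul, glutamine synthetase, fell from 153 ± 20.2 CPM to 101 ± 6.76 CPM, or -0.59 ± 0.08 (adjusted p = 0.0022), by 0.94 in set 1 and 0.35 in set 3 on the log2 scale. Rcbtb2, a gene of the RCC1 family, fell from 349.9 ± 29.7 CPM to 247 ± 16.2 CPM, or -0.51 ± 0.07 (adjusted p = 0.00191).

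Not all genes with high levels kept their call. Fnip2, a partner of folliculin in nutrient signalling, stood at 389.6 ± 42.8 CPM and 578 ± 124 CPM, or 0.57 ± 0.13 (adjusted p = 0.0414), and was called only with all libraries or without I or J (otherwise up to 0.118). Hpse, heparanase, stood at 178 ± 38.3 CPM and 299 ± 77.8 CPM with overlap, or 0.75 ± 0.18 (adjusted p = 0.0447), and stayed called only without A, I or J (otherwise up to 0.125).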
